A study of Arabidopsis thaliana with 9 samples.

Results

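The miR398 family of Arabidopsis thaliana was followed across 3 genotypes, in the level of its members and in the balance of their 5p and 3p arms, the products cut from the left and the right side of the precursor hairpin. Every entry of the count files whose name starts with miR398 and a letter was taken, which gave 6 of 427 entries: ath-miR398a-5p, ath-miR398a-3p, ath-miR398b-5p, ath-miR398b-3p, ath-miR398c-5p and ath-miR398c-3p, written here without the species prefix. All 6 had counts in every library and passed the filter on low counts. Each genotype (se-2, chr2 and wild type, WT) has 3 small RNA libraries from leaves at an age of 3 weeks. SERRATE (SE), mutated in se-2, is a zinc finger protein that assists the nuclease DCL1 in miRNA precursor processing. CHR2, mutated in chr2 and also called BRAHMA, is the motor subunit of SWI/SNF remodellers, which move nucleosomes with energy from ATP. The labels give these names, the tissue and the age, and no ecotype, mutation type or number of plants per library. The title of the study puts the question as the part of CHR2, through SE, in holding back miRNA production.

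miR398 is a copper-response miRNA. When copper is short, the transcription factor SPL7 binds GTAC core motifs in promoters of copper-response genes, among them MIR398b and MIR398c, and miR398 directs cleavage of transcripts for abundant copper proteins. Its 3p arm is the guide strand, which in Arabidopsis targets CSD1 and CSD2, the cytosolic and the chloroplast copper/zinc superoxide dismutases, and CCS, the chaperone that loads them with copper. The 5p arm is the passenger strand, usually called miR398*.

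The mature sequences below, from RefSeq on TAIR10.1, are shown because they decide which members can be told apart. Seed bases 2 to 8 are in capitals.
miR398a-3p: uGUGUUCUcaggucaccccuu
miR398b-3p and miR398c-3p: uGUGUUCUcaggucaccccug
miR398a-5p: aAGGAGUGgcaugugaacaca
miR398b-5p and miR398c-5p: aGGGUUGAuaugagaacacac
The 6 entries thus hold 4 sequences of 21 nt each. The guide arms share their seed and differ by a single substitution, G21U, counted from the 5′ end with the base of miR398b-3p first and that of miR398a-3p second. Compared position by position from their first bases, the passenger arms differ at 17 of 21 positions. Most of these differences arise because the annotated arms are offset by a single base. Shifted by that base, the passenger arms match at most positions. The a gene is still separated from the b and c genes by more bases in its 5p than in its 3p arm. Every 3p member starts with U and every 5p member with A. No entry outside the family had the seed of the guide arms, and 1 entry, miR5653, had that of miR398b-5p.

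The b and c entries carried nearly the same counts in every library, differing by 0 to 7 counts for 5p and by 0 to 3 for 3p, at most 0.671% and 0.430% of the b count. A read of a shared sequence was therefore apparently counted for each gene. The b values below stand for both genes, their split is unknown, and the b and c members are not independent measurements.

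The 3 precursors are shown with both mature arms in capitals, 5p first.
MIR398a: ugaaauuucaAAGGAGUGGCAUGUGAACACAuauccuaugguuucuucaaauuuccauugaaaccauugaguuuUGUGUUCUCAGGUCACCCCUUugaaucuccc
MIR398b: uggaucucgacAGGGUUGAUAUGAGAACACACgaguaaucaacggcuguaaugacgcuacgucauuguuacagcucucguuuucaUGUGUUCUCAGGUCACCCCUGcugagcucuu
MIR398c: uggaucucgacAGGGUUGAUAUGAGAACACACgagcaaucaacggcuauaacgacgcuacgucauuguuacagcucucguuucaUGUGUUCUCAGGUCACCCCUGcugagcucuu
MIR398a (AT2G03445) lies on chromosome 2 at 1040938 to 1041042. MIR398b (AT5G14545, 4691022 to 4691137) and MIR398c (AT5G14565, 4694694 to 4694808) lie on chromosome 5, all 3 on the plus strand. The b and c genes are 3556 bases apart, with the protein-coding gene AT5G14560 between them. The annotated hairpins are 105, 116 and 115 nt long in the order a, b, c. Predicted minimum free energies from RNAfold were -39.1, -51.4 and -45.9 kcal/mol in the same order. The arms are separated by 43, 53 and 52 bases and pair with each other through 18, 18 and 17 base pairs.

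Reference transcripts of 4 genes chosen beforehand were searched for sites of miR398b-3p: CSD1, CSD2, CCS and AT3G15640, which has no symbol in the reference annotation used here. The best-scoring stretch of each gene is shown, for the RNA that the guide strand reads. No score cutoff or background transcripts were used, so a stretch was bound to be returned for each gene. Capitals mark mismatched, G:U-paired or bulged bases.
CSD1: AagggguUUccugagaUcaca
CSD2: UGCgggugaccugGgAaacaUa
CCS: caUUgggAgaccugGgaacacU
AT3G15640: AaggUgugaccugagaaUcaca
The CSD1 site (AT1G08830, chromosome 1, 2827177 to 2827685, plus strand) lies in the 5′ UTR and spans an intron of 488 bases; it has 17 Watson-Crick pairs and 4 mismatches. The CSD2 site (AT2G28190, chromosome 2, 12015572 to 12015593, plus strand) lies in coding sequence and has 16 such pairs. The CCS site (AT1G12520, chromosome 1, 4267521 to 4267542, minus strand) is also coding and has 17. The AT3G15640 site (chromosome 3, 5299204 to 5299225, plus strand), in the 5′ UTR, is the best paired of the 4, with 19 Watson-Crick pairs, 2 mismatches and 1 bulged base. None of the 4 sites has a mismatch or G:U pair opposite miRNA bases 10 and 11, where cleavage takes place. Opposite seed bases 2 to 8 there were 1 in CSD1, 2 in CSD2, 1 in CCS and 0 in AT3G15640. Bulged bases, which fall between seed pairs in CSD2 and AT3G15640, are not in these counts. The transcripts of these targets were not measured here, so no value below refers to superoxide dismutase itself.

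The deposited counts cover miRNA entries alone, so their sums are not sequencing depth. They ranged from 130482 to 195415 in se-2, 637283 to 908635 in chr2 and 1280294 to 1588242 in WT libraries. The low se-2 totals go with genotype, and their part in the results was not tested. Levels are given in CPM, counts scaled to a common library total, after TMM scaling, which sets libraries equal by a trimmed mean over miRNAs. The median entry can still differ: in chr2 against se-2 its log2 difference was -0.51. Differences are edgeR quasi-likelihood log2 fold changes with a standard error (SE), adjusted by Benjamini and Hochberg over 270 tested entries at 0.05. A change shared by most miRNAs cannot be read from these values. Transcripts of the mutated genes and markers of leaf tissue are no part of small RNA counts, so the labels were not checked. In whole leaves, fewer cells making a miRNA and less of it per cell cannot be told apart.

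Summed over its 4 sequences, the family had its lowest level in se-2. The sum was 5765, 8769 and 7170 CPM in se-2, 16974, 14336 and 18383 CPM in chr2 and 16849, 22982 and 28271 CPM in WT libraries. The mean was thus 7235 ± 1503 CPM in se-2, 16564 ± 2054 CPM in chr2 and 22701 ± 5716 CPM in WT (SD, n = 3 each). The se-2 mean was 3.14-fold below WT, with no overlap between libraries (two-sided exact permutation p = 0.1, the smallest that 3 against 3 libraries allow). The chr2 mean was 1.37-fold below WT, with overlapping libraries (exact p = 0.3), and 2.29-fold above se-2 without overlap (exact p = 0.1). Summed by arm, chr2 was 1.28-fold below WT for 3p, without overlap (exact permutation p = 0.1). For 5p it was 1.43-fold below WT, with overlap (exact permutation p = 0.3).

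miR398b-3p, the most abundant guide strand of the family, fell in se-2. It had 2033, 4056 and 3301 CPM in se-2, 6215, 6246 and 5354 CPM in chr2 and 6552, 7350 and 9350 CPM in WT. Every se-2 library lay below every chr2 library, and every chr2 library below every WT library. The fall in se-2 against WT was 2.47-fold (log2 -1.31, SE 0.22, edgeR adjusted p = 6.51e-06). The log2 difference of chr2 against WT was -0.38 (SE 0.22, 95% interval -0.83 to 0.06, edgeR adjusted p = 0.184), which did not pass. It changed with the libraries fitted: it was -0.044 without WT replicate 3 and -0.090 without chr2 replicate 3, and -0.20 and -0.21 without se-2 replicate 2 or chr2 replicate 1. The median over all entries moved as well, from -0.15 to 0.04, 0.01, 0.02 and -0.0009 in the same order. Part of each shift was thus shared by the whole set. Against se-2, chr2 was higher by 0.92 (SE 0.22, edgeR adjusted p = 0.000524).

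miR398a-3p, the guide strand of MIR398a, was the rarer guide and also fell in se-2. It had 204, 320 and 230 CPM in se-2, 715, 781 and 535 CPM in chr2 and 655, 565 and 887 CPM in WT. The se-2 libraries lay below all others, and the chr2 and WT libraries overlapped. The fall in se-2 against WT was 2.78-fold (log2 -1.48, SE 0.24, edgeR adjusted p = 2.85e-06). Between chr2 and WT the difference was -0.05 (SE 0.21, 95% interval -0.48 to 0.37, edgeR adjusted p = 0.889), with a sign that other scalings turned. Against se-2, chr2 was higher by 1.43 (SE 0.24, edgeR adjusted p = 5.6e-06).

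miR398b-5p, annotated as the passenger strand, was the most abundant member in all 3 genotypes by mean CPM. It had 3484, 4329 and 3572 CPM in se-2, 9785, 7124 and 12286 CPM in chr2 and 9566, 14932 and 17798 CPM in WT. The se-2 libraries lay below all others, and 2 of 3 WT libraries lay above all chr2 libraries. The fall in se-2 against WT was 3.71-fold (log2 -1.89, SE 0.23, edgeR adjusted p = 3.06e-08). For chr2 against WT the difference was -0.54 (SE 0.22, 95% interval -0.99 to -0.08, edgeR adjusted p = 0.0655). That interval leaves out 0, but the p did not pass after adjustment over all entries. The difference was -0.16 without WT replicate 3 (adjusted p = 0.742) and -0.22 without chr2 replicate 2 (adjusted p = 0.489). Against se-2, chr2 was higher by 1.36 (SE 0.23, edgeR adjusted p = 5.23e-06).

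miR398a-5p was the rarest member. It had 51.0, 87.2 and 81.8 CPM in se-2, 259, 186 and 206 CPM in chr2 and 77.3, 137 and 233 CPM in WT. The se-2 values rest on 7, 15 and 16 counts. WT libraries spread over a 3.01-fold range and overlapped both mutants. The fall in se-2 against WT was 1.99-fold (log2 -0.996, SE 0.37, edgeR adjusted p = 0.0178). This call was lost without WT replicate 3 (-0.56, adjusted p = 0.117), without se-2 replicate 1 (-0.83, adjusted p = 0.0917) and without se-2 replicate 3 (-1.09, adjusted p = 0.0574). It was the sole member with a difference above 0 in chr2 against WT (0.54, SE 0.27, 95% interval -0.02 to 1.09, edgeR adjusted p = 0.138). That difference passed without WT replicate 3 (1.20, adjusted p = 3.69e-05). Without se-2 replicate 2, chr2 replicate 2 or chr2 replicate 3 it passed as well, at 0.73, 0.78 and 0.80, with adjusted p of 0.0310, 0.0490 and 0.0384. Against se-2, chr2 was higher by 1.53 (SE 0.37, edgeR adjusted p = 0.000481).

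**Figure D1:**
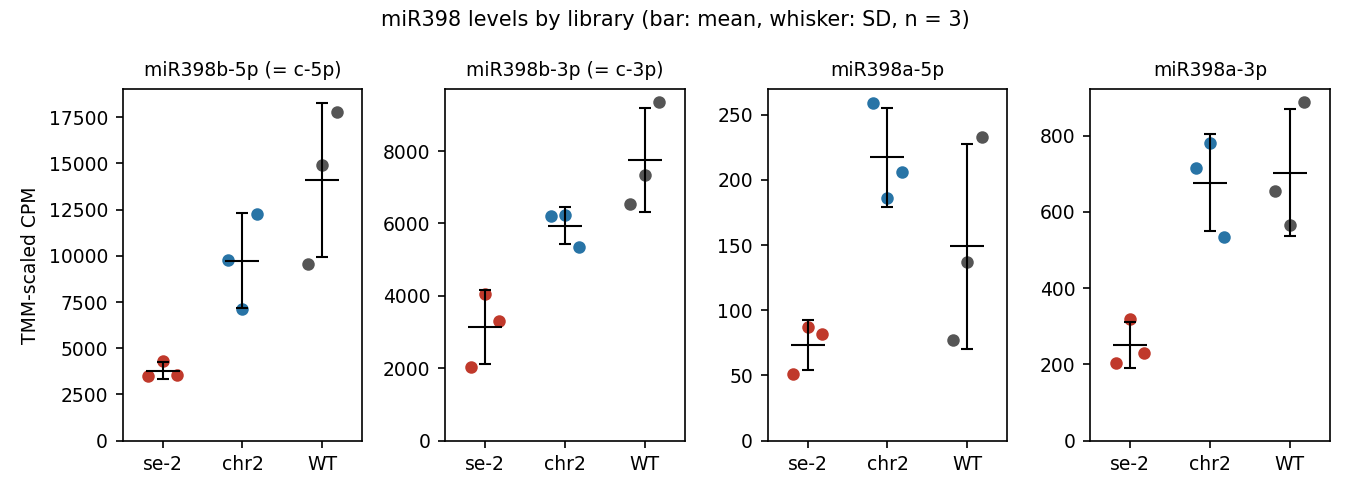
TMM-scaled CPM of the 4 distinct miR398 sequences (vertical axes, each from 0) in se-2, chr2 and WT, with a point per library, a bar at the mean and whiskers of 1 SD (n = 3). For miR398b-5p the se-2 points lie between 3484 and 4329 CPM, below all others; miR398a-5p points in WT spread from 77.3 to 233 CPM.

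All 6 members passed the test as lower in se-2 than in WT, where 30.4% of tested entries passed as lower, 42.2% as higher and 72.6% in either direction. For 5 of the 6 members the se-2 and WT libraries did not overlap, as for 77.4% of entries. Their median log2 difference was -1.39, against 0.11 over all 270 entries. miR398b-5p stood low within the whole set, with 14.4% of entries at a lower log2 difference, and miR398b-3p less so, with 24.8%. No member passed in chr2 against WT, where 30.0% of entries passed, 10.4% as higher and 19.6% as lower. The chr2 and WT libraries did not overlap for miR398b-3p and miR398c-3p, nor for 45.6% of all entries. The median was -0.38 for members and -0.15 over all entries. All 6 members passed as higher in chr2 than in se-2, where 33.0% of entries did, against 47.4% as lower and 80.4% in either direction. None of the 6 overlapped between chr2 and se-2 libraries, as for 78.1% of entries. The medians were 1.36 for members and -0.51 over all entries. The comparisons share libraries, so they are not independent of each other.

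The number of entries called lower depended on the scaling. In se-2 against WT, 114 entries passed as higher and 82 as lower with TMM, 96 and 118 with DESeq2 size factors, and 16 and 191 when libraries were set equal by 115 late-annotated entries (family numbers from 5000). These splits were, for chr2 against WT, 28 and 53, 46 and 37, and 14 and 105. For chr2 against se-2 they were 89 and 128, 114 and 102, and 160 and 31. Leaving miR8175 out of the late entries changed the splits to 27 and 182, 43 and 28, and 172 and 22 in the same order of comparisons. With total counts the chr2 against WT split was 28 and 35. Late-entry scaling was the sole one of these 5 that called miR398b-5p (-0.93, adjusted p = 0.00608) and miR398b-3p (-0.74, adjusted p = 0.0411) lower in chr2 than in WT.

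A scaling shifts all entries of a comparison by nearly the same amount, so the position of a member relative to the median of all entries is fixed whatever the scaling. It is given as a description over the 5 scalings. In se-2 against WT, miR398b-5p stayed below that median by a log2 value of -2.03 to -1.99. miR398b-3p ran from -1.45 to -1.40, miR398a-3p from -1.63 to -1.58 and miR398a-5p from -1.15 to -1.09. In chr2 against WT, miR398b-5p ran from -0.44 to -0.38 and miR398b-3p from -0.25 to -0.22, below the median. miR398a-3p ran from 0.10 to 0.12 and miR398a-5p from 0.64 to 0.69, above it. The median itself moved between 0.25 and -2.26 in se-2 against WT, which is a shift of the whole set. Under every one of the 5 scalings each member was lower in se-2 than in WT and higher in chr2 than in se-2.

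**Figure D2:**
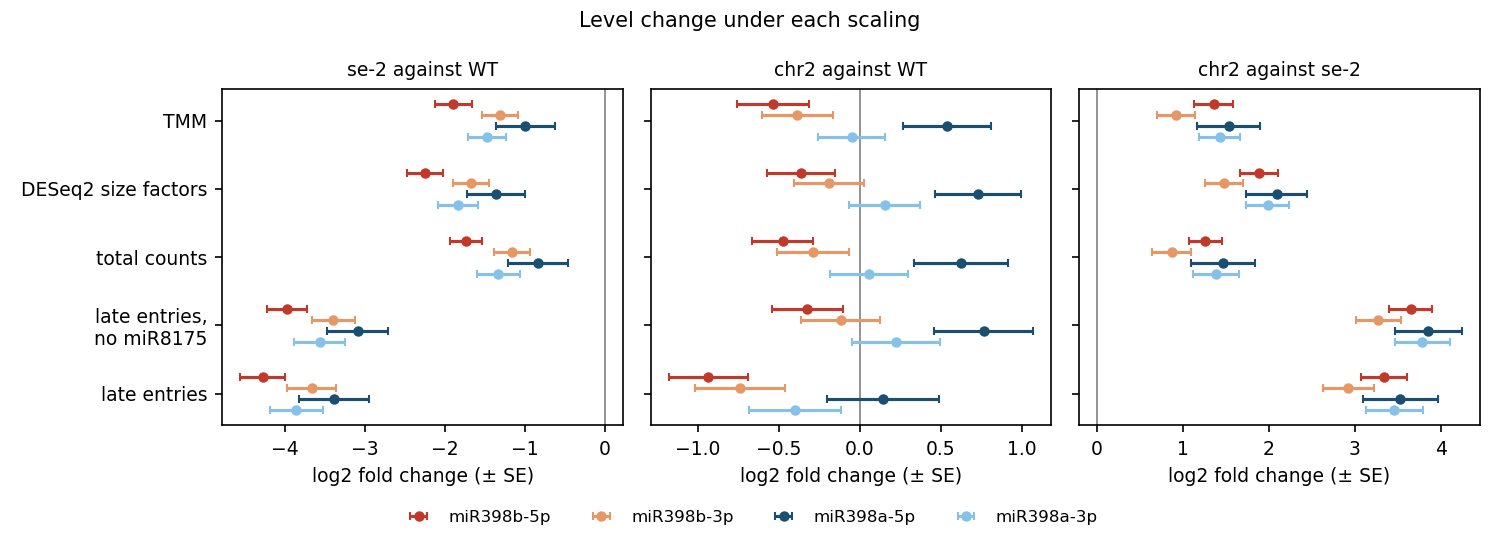
Log2 fold change (horizontal axis, ± SE) of the 4 miR398 sequences under 5 scalings of the libraries (rows), for se-2 against WT, chr2 against WT and chr2 against se-2. All points lie left of 0 in se-2 against WT, from -0.84 to -4.28, and right of 0 in chr2 against se-2, whereas in chr2 against WT they lie on both sides of 0, from -0.93 to 0.76.

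In se-2, miR398b-5p ranked 30 and miR398b-3p 35 among 270 tested entries by mean CPM, and miR398a-3p ranked 95 and miR398a-5p 169. In chr2 the same members ranked 26, 33, 59 and 95, and in WT they ranked 17, 31, 62 and 114. The spread between libraries of a genotype differed among members. The highest over the lowest se-2 library was 1.24 for miR398b-5p and 1.99 for miR398b-3p, beside a median of 1.27 over the 49 entries with a mean of at least 1000 CPM. The chr2 ratios were 1.72 and 1.17, beside a median of 1.45 over 55 such entries. The WT ratios were 1.86 and 1.43, both above the median of 1.14 over 56 such entries.

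miR398b yielded more 5p than 3p counts in all 9 libraries, though in se-2 replicates 2 and 3 the excess lay within counting error. The 5p share of both arms is a ratio within a library and needs no scaling. It was 63.1%, 51.6% and 52.0% in se-2, 61.2%, 53.3% and 69.6% in chr2 and 59.4%, 67.0% and 65.6% in WT. The exact (Clopper-Pearson) 95% intervals are narrow, 59.6% to 66.6% for se-2 replicate 1 and 65.1% to 66.0% for WT replicate 3, for example. Those of se-2 replicates 2 and 3, 49.0% to 54.2% and 49.3% to 54.7%, include an even balance. The intervals cover counting error only. Libraries of a genotype mostly lay outside each other's intervals, while se-2 replicates 2 and 3 were alike. The largest spread was in chr2, from 53.3% to 69.6%.

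The 5p share averaged 55.6% ± 6.55 in se-2, 61.4% ± 8.18 in chr2 and 64.0% ± 4.07 in WT (SD, n = 3 each). The difference in points was -8.39 in se-2 against WT (two-sided exact permutation p = 0.2), -2.61 in chr2 against WT (exact p = 0.7) and 5.78 in chr2 against se-2 (exact p = 0.5). Libraries overlapped in all 3 comparisons. Leaving out chr2 replicate 2 turned the chr2 against WT difference to 1.43 points.

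miR398a had the opposite balance, with the 3p arm larger in all 9 libraries. Its 3p arm differs from that of miR398b and miR398c in the last base alone. Whether reads of those genes are among its 3p counts was not tested. Its 5p share was 20.0%, 21.4% and 26.2% in se-2, 26.6%, 19.2% and 27.8% in chr2 and 10.6%, 19.5% and 20.8% in WT. Means were 22.6% ± 3.26 in se-2, 24.6% ± 4.66 in chr2 and 17.0% ± 5.57 in WT (SD, n = 3 each). Groups overlapped in every comparison (exact permutation p = 0.2 for se-2 against WT, 0.3 for chr2 against WT and 0.7 for chr2 against se-2). The se-2 shares rest on 35, 70 and 61 counts of both arms, so that their intervals are wide, from 8.44% to 36.9% in se-2 replicate 1.

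**Figure D3:**
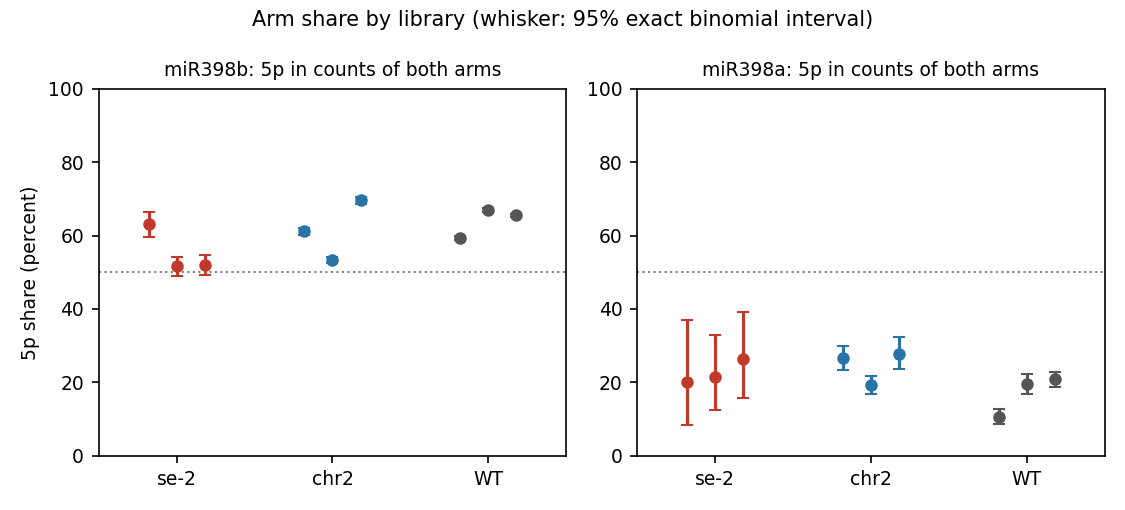
5p share (percent of the counts of both arms, vertical axis) of miR398b and miR398a in each se-2, chr2 and WT library, with 95% exact binomial whiskers and a dotted line where both arms are equal. miR398b lies above the line in every library, from 51.6% to 69.6%, and miR398a below it, from 10.6% to 27.8%.

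The arm balance was also fitted across hairpins, with a term for each library and the change of log2 5p over 3p between genotypes as the tested value. Of 93 hairpins listed with both arms, 55 had enough counts. For miR398b, the change was -0.51 in se-2 against WT (SE 0.26, 95% interval -1.02 to -0.01). Its p was 0.0456 alone and 0.0810 after edgeR adjustment over the 55 hairpins, so it was not called. The fit of se-2 and WT libraries alone called it (-0.52, adjusted p = 0.0466), as did the fit without se-2 replicate 1 (-0.73, adjusted p = 0.0220). The chr2 against WT difference was -0.15 (SE 0.25, 95% interval -0.65 to 0.34, edgeR adjusted p = 0.809), which leaving out chr2 replicate 2 turned to 0.093. In chr2 against se-2 it was 0.36 (SE 0.26, 95% interval -0.14 to 0.87, edgeR adjusted p = 0.222). That value was 0.11 without chr2 replicate 3, 0.58 without se-2 replicate 1 and 0.61 without chr2 replicate 2.

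For miR398a, with the same limit on its 3p counts, the differences lay above 0. Log2 5p over 3p differed by 0.57 in se-2 against WT (SE 0.40, 95% interval -0.22 to 1.35, edgeR adjusted p = 0.201) and by 0.68 in chr2 against WT (SE 0.28, 95% interval 0.13 to 1.23, edgeR adjusted p = 0.0778). The chr2 against WT difference was 0.34 without WT replicate 1 (adjusted p = 0.591) and 0.90 without chr2 replicate 2, where it passed (adjusted p = 0.00809). Without WT replicate 1 the se-2 against WT difference was 0.23 (adjusted p = 0.648). In chr2 against se-2 it was 0.11 (SE 0.39, edgeR adjusted p = 0.793).

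By these tests no miR398 hairpin was called. Arm balance passed in 43.6% of hairpins in se-2 against WT, 14.5% in chr2 against WT and 54.5% in chr2 against se-2. The called gains and losses of 5p made up 21.8% and 21.8%, 10.9% and 3.64%, and 25.5% and 29.1% of hairpins in the same order. Libraries did not overlap in this balance for 63.6%, 27.3% and 54.5% of hairpins, and those of miR398b overlapped in all 3 comparisons. By this measure, the log2 ratio with 0.5 added to each arm, the miR398a libraries of se-2 lay above those of WT, while as plain shares they overlapped, with 20.0% in se-2 replicate 1 and 20.8% in WT replicate 3. By size, miR398b ranked 41 of 55 in se-2 against WT and stood, its copy miR398c aside, next to miR156b (-0.51) and miR2112 (-0.60) in the ordered list. miR398a ranked 36 in se-2 against WT and 11 in chr2 against WT. miR398b ranked 39 in chr2 against WT, between miR164b (-0.08) and miR403 (-0.18). The largest called gains of 5p in se-2 against WT were miR390b (4.91), miR168b (3.58), miR160c (2.98), miR169f (2.66) and miR157c (2.17). The largest called losses were miR172b (-2.90), miR173 (-2.78), miR156f (-1.90), miR166e (-1.85) and miR164b (-1.77). In chr2 against WT, miR156d (4.98), miR393a (2.81), miR160c (0.89), miR169a (0.86) and miR396a (0.73) had the largest called gains. Its called losses were miR171b (-1.04) and miR165a (-0.73).

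In WT, the arm counts of miR398b were nearer to an even balance than those of most hairpins. Whether ligation and amplification recovered both arms equally was not tested, so these counts need not equal levels in the leaf. In pooled WT counts its 5p share was 64.4%, the fourth nearest to an even balance of the 55 hairpins. Only miR173 (47.1%), miR472 (53.4%) and miR171a (45.8%) were nearer. miR398a, with 17.5% 5p, ranked 18. These ranks are a description with no test.

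**Figure D4:**
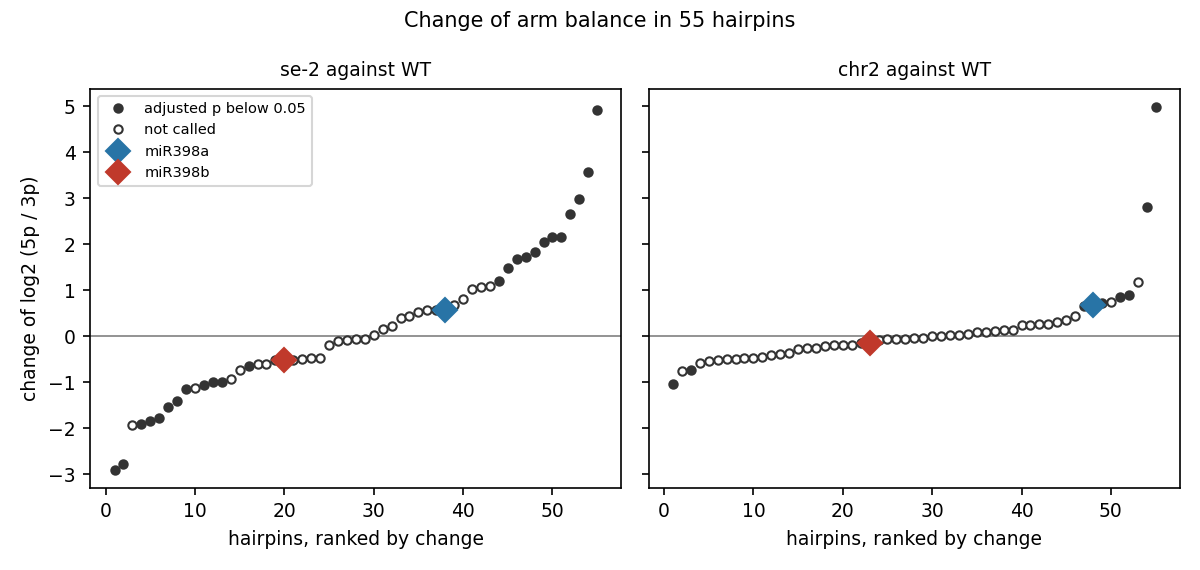
Change of log2 5p over 3p (vertical axis) in 55 hairpins ranked by that change (horizontal axis), for se-2 against WT on the left and chr2 against WT on the right. Filled points passed at an adjusted p below 0.05, and diamonds mark miR398a and miR398b, both uncalled in either comparison, at 0.57 and -0.51 in se-2 and 0.68 and -0.15 in chr2.

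The share of MIR398a within each arm compares the genes with no scaling. Counts of miR398a-5p among those of miR398a-5p and miR398b-5p together were 1.44%, 1.97% and 2.24% in se-2, 2.58%, 2.54% and 1.65% in chr2 and 0.802%, 0.908% and 1.29% in WT. All libraries of both mutants lay above all WT libraries. Means were 1.88% ± 0.405 in se-2, 2.26% ± 0.526 in chr2 and 1.001% ± 0.258 in WT (SD, n = 3 each). Exact permutation gave p = 0.1 for each mutant against WT, the smallest possible, and both comparisons use the same WT libraries. The se-2 shares rest on few counts, with an exact 95% interval of 0.582% to 2.95% in replicate 1. This quantity was chosen after its values were seen.

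In the 3p arm, where a and b differ by a single base, the a share was 9.12%, 7.30% and 6.51% in se-2, 10.3%, 11.1% and 9.08% in chr2 and 9.08%, 7.13% and 8.67% in WT. Means were 7.65% ± 1.34 in se-2, 10.2% ± 1.02 in chr2 and 8.29% ± 1.03 in WT (SD, n = 3 each). Groups overlapped in all 3 comparisons (exact permutation p = 0.7 for se-2 against WT and 0.2 for chr2 against WT and against se-2).

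The regions upstream of the hairpin genes differ in the copper-response core GTAC, which is its own reverse complement and was therefore searched once for both strands. The windows run from 250 bases before to 50 after the annotated start of the hairpin gene, which is not a measured transcription start. They are shown for MIR398b and MIR398c with each GTAC in capitals, from RefSeq on TAIR10.1.
MIR398b, chr5:4690772-4691071, plus strand: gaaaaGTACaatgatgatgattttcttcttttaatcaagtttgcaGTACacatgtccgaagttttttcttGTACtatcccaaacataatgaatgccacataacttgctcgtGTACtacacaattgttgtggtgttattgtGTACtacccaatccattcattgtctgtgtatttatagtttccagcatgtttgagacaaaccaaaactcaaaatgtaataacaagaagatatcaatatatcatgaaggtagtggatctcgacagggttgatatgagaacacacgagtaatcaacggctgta
MIR398c, chr5:4694444-4694743, plus strand: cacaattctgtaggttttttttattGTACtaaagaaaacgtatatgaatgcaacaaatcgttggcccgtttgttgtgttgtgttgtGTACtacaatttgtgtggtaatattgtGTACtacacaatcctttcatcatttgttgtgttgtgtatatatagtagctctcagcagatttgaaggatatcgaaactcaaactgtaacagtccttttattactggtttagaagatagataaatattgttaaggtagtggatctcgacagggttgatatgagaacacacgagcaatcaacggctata
MIR398b held 5 matches, at -245, -205, -180, -139 and -110, and MIR398c held 3, at -225, -164 and -137. MIR398a held 0. Of 33054 such windows in the genome, 39.3% held at least 1 GTAC and 9.98% held 2 or more. A match is a run of letters, and none of these data show a factor bound there.

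**Figure D5:**
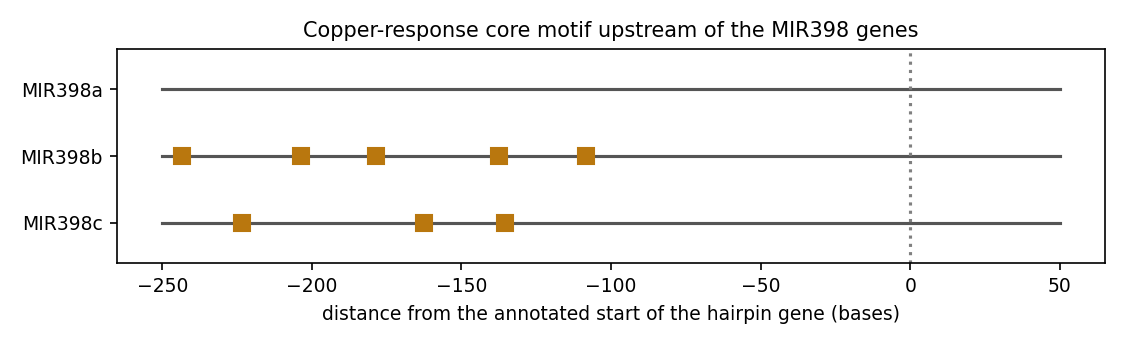
Position of GTAC motifs (squares) in the window around the start of each MIR398 gene (rows), with distance from the annotated start in bases on the horizontal axis. MIR398b has 5 motifs, MIR398c 3 and MIR398a none.

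The other copper families differed in direction in se-2 with TMM scaling. miR397 targets laccases, miR408 targets laccases and plantacyanin, and miR857 targets a laccase, and all of their 5 entries were tested. In se-2 against WT, 2 of 5 passed as higher and 1 as lower, which is near the 42.2% and 30.4% of all tested entries. miR857 had 466, 848 and 710 CPM in se-2 against 44.3, 52.2 and 67.4 CPM in WT, without overlap, and rose by 3.63 (SE 0.25, edgeR adjusted p = 3.72e-13). miR397a had 14.6, 23.2 and 0 CPM in se-2 against 52.6, 69.3 and 154 CPM in WT, again without overlap, and fell (log2 -2.94, SE 0.61, edgeR adjusted p = 9.27e-05). Its se-2 values rest on 2, 4 and 0 counts. miR408-3p had 9343, 13789 and 13150 CPM in se-2 against 5873, 8125 and 9974 CPM in WT, with overlap, and was called higher by 0.60 (SE 0.22, edgeR adjusted p = 0.0177). That direction did not hold across scalings: with late-entry scaling miR408-3p was called lower by 1.77 (log2 -1.77) and, without miR8175, lower by 1.48 (log2 -1.48). Over 9 settings it was called higher in 5 and lower in 2. miR397b (-0.26, edgeR adjusted p = 0.406) and miR408-5p (-0.11, edgeR adjusted p = 0.690) did not pass. Late-entry scaling called both lower (-2.63, adjusted p = 2.25e-06, and -2.51, adjusted p = 1.69e-06), as 3 and 2 of the 9 settings did. Under that scaling miR857 was higher by 1.27 in place of 3.63. Thus 1 of the 5 entries passed as higher and 4 as lower, beside 16 higher and 191 lower of all 270 tested entries.

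Of these 5 entries, 2 passed as higher and 0 as lower in chr2 against WT, where 10.4% and 19.6% of all tested entries did, and both came from the miR408 hairpin. miR408-3p had 20584, 16810 and 29064 CPM in chr2 against 5873, 8125 and 9974 CPM in WT, without overlap, and rose by 1.47 (SE 0.22, edgeR adjusted p = 8.98e-06). miR408-5p had 2198, 1592 and 1909 CPM in chr2 against 504, 752 and 1222 CPM in WT and rose by 1.20 (SE 0.24, edgeR adjusted p = 0.000321). Both calls held under all 9 scalings, filters and tests run on this list. miR397a (0.56), miR397b (0.32) and miR857 (0.46) did not pass. Over the 9 libraries, log2 CPM of miR398b-3p correlated with miR397a at 0.73, with miR397b at 0.61, with miR408-5p at 0.36, with miR408-3p at -0.03 and with miR857 at -0.81.

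Correlations between members over the 9 libraries are a description with no test, since the libraries fall into 3 genotypes and share their scaling. Pearson's r of log2 CPM was 0.94 between miR398b-3p and miR398a-3p, 0.90 between the arms of miR398b, 0.80 between the arms of miR398a and 0.74 between miR398b-5p and miR398a-5p. Taken as deviations from genotype means, these were 0.79, 0.37, 0.54 and 0.76. Many other entries followed a member more closely. Among 269 entries, miR398a-3p ranked 7 and miR398b-5p 11 in likeness to miR398b-3p, miR398a-5p ranked 53 in likeness to miR398a-3p and 63 in likeness to miR398b-5p. Outside the family, the entries most like miR398b-3p were miR825 (0.97), miR162b-5p (0.96), miR167b (0.95), miR167a-5p (0.95) and miR162a-5p (0.95). Their deviations from genotype means correlated with it at 0.89, 0.79, 0.81, 0.81 and 0.69. Most like miR398b-5p were miR161-1 (0.96), miR161-2 (0.96), miR396a-3p (0.95), miR824-3p (0.94) and miR830-5p (0.94). The miR161-1 and miR161-2 entries had nearly the same mean CPM. Their deviations from genotype means correlated at 0.72, 0.72, 0.65, 0.53 and 0.29. miR830-5p is a rare entry, with a mean of 9.11 CPM.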

How the data were processed

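Per the labels' protocols, small RNA of 19 to 24 nt was gel-purified, ligated to adapters and amplified for Illumina sequencing. Bowtie 1.1.2 and TAIR10 are listed in the submitters' processing notes. Not given in the sources used here are the counting tool, the miRNA annotation and how reads with several matches were treated. The deposited values are raw counts of mature miRNAs, without normalization. All 427 names were matched to RefSeq matures of TAIR10.1, which gave sequences and coordinates.

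Counts were tested with edgeR 4.0.16 (limma 3.58.1, R 4.3.3; quasi-likelihood, robust, TMM, filterByExpr) in a single fit of 9 libraries with genotype as the sole term. Identical count rows entered once (368 of 384 detected entries, 270 tested). Arm balance was fitted on hairpins with at least 10 counts of both arms in every library and at least 10 of each arm in all. Shares were compared by exact two-sided permutation (scipy 1.17.1, Python 3.11.15), and hairpins were folded with RNAfold 2.7.2. Both fits were also run on simulated counts, where the planted arm changes were larger than that of miR398b. Alternatives covered scaling, filter, test (DESeq2 1.42.0, limma-voom), libraries fitted, replicate block and each library left out.

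Named beside the members were all miR397, miR408 and miR857 entries, the 5 entries most correlated with each arm of miR398b, the hairpins ranked next to miR398b, and the 5 largest called arm changes in each direction. The members and lists were chosen with earlier results of these data known. Genotype and replicate number came from sample titles, which do not say whether libraries are separate plants, so p-values measure the spread between these libraries, which may be technical. No library was a copy of another: between replicates, chi-square over its degrees of freedom was 2.96 to 102. Low totals in se-2 limit its rare members.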

Additional observations from a re-analysis of the deposited data

How the results depend on the processing

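The falls of all 6 members in se-2 and their higher levels in chr2 than in se-2 kept direction under every alternative and left-out library; calls were lost for miR398a-5p alone, in se-2 against WT, as given for left-out libraries above and with total counts (-0.84, adjusted p = 0.0551) or limma-voom (-0.84, adjusted p = 0.0698). In chr2 against WT, late-entry scaling called miR398b-3p and miR398c-3p lower (-0.74 each, adjusted p = 0.0411), and likewise miR398b-5p (-0.93) and miR398c-5p (-0.94, adjusted p = 0.00608 for both). The uncalled miR398a-3p difference in chr2 against WT (-0.05) turned to 0.15 with DESeq2 size factors and in the DESeq2 test, 0.06 with total counts, 0.22 with late entries without miR8175, 0.12 with no filter on low counts and with a single row per mature sequence, and 0.14 with only these genotypes; leaving out 1 library gave -0.18 to 0.34. miR398a-5p in chr2 against WT passed with DESeq2 size factors (0.73, adjusted p = 0.0377), no filter (0.69, adjusted p = 0.0148) and a single row per sequence (0.70, adjusted p = 0.0277). The alternatives for miR398a-5p and for the miR398a balance were added after the data were seen. The cause of these shifts was not tested.

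The miR398b arm balance ran from -0.73 to -0.40 with 1 library left out in se-2 against WT, and from -0.41 to 0.093 in chr2 against WT; it was -0.52 with only se-2 and WT fitted. The 5p share difference in chr2 against WT ran from -6.75 to 1.43 points, and the miR398a balance in chr2 against se-2 from -0.013 to 0.33. Leaving out 1 library gave miR398b-3p -0.41 to -0.044 and miR398b-5p -0.57 to -0.16 in chr2 against WT, and a miR398a balance of 0.34 to 0.90 in chr2 against WT and 0.23 to 0.79 in se-2 against WT. Of all recomputed values, 425 kept direction and side of the threshold, 14 gained a call, 5 lost one and 15 changed sign. These totals hold the b and c entries separately, though they are not independent. They judge 5p share differences by direction alone, since the exact test could not pass.

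Entries called lower in chr2 against WT, 53 in the reported fit, numbered 31 with the DESeq2 test, 35 with only these genotypes and 33 with a single row per sequence, and 30, 33 and 29 without WT replicate 1, chr2 replicate 1 or chr2 replicate 3; those called lower in chr2 against se-2 numbered 128, and 84 with a single row per sequence. Same-numbered replicates did not deviate together (correlations of -0.21 to 0.08, none above 0.1), so numbers were not taken as pairs. With the replicate block no call of a member changed: miR398b-5p was at -1.85 and miR398b-3p at -1.33 in se-2 against WT, and the arm balance of miR398b at -0.50. Counts of 7 to 16 for miR398a-5p in se-2 limit what can be said of its gene there.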
